A study of Mus musculus with 12 samples.

Results

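The endoplasmic reticulum folding and unfolded protein response genes were followed in mouse embryonic fibroblasts (MEFs) without type 2 transglutaminase (TG2 KO) and in wild-type (WT) MEFs, with and without heat shock. The list held 32 genes, chosen by symbol for their known role, out of 45808 genes in the deposited table. The choice was made with earlier results of these data known, so counts of the list beside all genes are a description only. Of the 32 genes, 31 were found under their own symbol and Selenos under its older symbol Vimp. A total of 31 genes passed the filter on low values (a signal of 10 or more in 3 or more libraries), as did 14201 genes of the whole table. The exception was Derl3, with 0 reads in all 12 libraries, which allows up to 3 reads over a group, or a signal of at most 1.15. The 4 groups were TG2 KO MEFs after heat shock (42 °C for 20 min), TG2 KO control MEFs kept at 37 °C, WT MEFs after the same heat shock and WT control MEFs kept at 37 °C, with 3 libraries each. The fibroblasts came from C57BL/6 embryos and became immortal spontaneously through passaging, so the genotype and the separate immortalization of the cells cannot be told apart.

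Each value is a normalized read count, named signal here, which the authors obtained by dividing the reads in a gene by a size factor of the library. Reads in genes numbered 15319300 to 27668395 per library (median 19119552), so that 1 read was worth a signal of 0.699 to 1.38. Among the tested genes of the list the lowest library value was 189 reads, for Sdf2l1. No source states whether the 3 libraries of a group were separate cultures, so every p-value measures the spread between these libraries, which may be technical. Reads of the targeted gene Tgm2 were fewer in KO MEFs without being absent, with a signal of 526 to 1093 in KO heat shock and 1032 to 1189 in KO control MEFs, against 1957 to 2049 in WT heat shock and 1605 to 1750 in WT control MEFs. Of 12 fibroblast markers, 11 reached a mean signal of 10 in at least 1 group, and Lum did not. Their summed signal was 316374 to 357518 in KO heat shock, 228523 to 236543 in KO control, 380339 to 414862 in WT heat shock and 237220 to 265964 in WT control MEFs, and single markers lay on either side, with Thy1 at 8249 in KO control and 517 in WT control MEFs and Col1a1 at 12738 in KO control and 98358 in WT control MEFs. Of 4 muscle markers, 1 reached a mean signal of 10, Des, with 205 in KO control and 9.04 in WT control MEFs. The others, Myod1, Myog and Myf5, had 1.44, 1.03 and 0 in KO control MEFs. Of 8 macrophage markers, 3 did (Cd68, Csf1r and Cd14), and their summed signal was 1416 to 1724 in KO heat shock, 1553 to 1817 in KO control, 5379 to 5796 in WT heat shock and 4325 to 4983 in WT control MEFs, while Adgre1 had 0 reads and Ptprc a mean signal of at most 0.754. Csf1r supplied most of this sum in WT MEFs, with a mean of 12.3 in KO control and 4332 in WT control MEFs, and Cd14 most of it in KO MEFs, with 1544 in KO control and 183 in WT control MEFs. Endothelial, epithelial, neural and secretory markers that reached a mean signal of 10 also lay on either side. Lower in KO control than in WT control MEFs were Map2 (0 and 516), Krt14 (0 and 32.7), Kdr (0.353 and 25.1) and Tubb3 (1022 and 1047). Higher were Sdc1 (4086 and 3284), Nes (731 and 506) and Krt8 (14.4 and 8.44). The part of these markers in the genotype differences given here was not tested.

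Secreted and membrane proteins fold in the lumen of the endoplasmic reticulum with the help of chaperones of the HSP70 and HSP90 families, of the lectins calreticulin and calnexin, and of protein disulfide isomerases. When unfolded proteins accumulate, the membrane sensors IRE1 (Ern1), PERK (Eif2ak3) and ATF6 start the unfolded protein response. IRE1 splices the Xbp1 messenger RNA, ATF6 is cleaved into a transcription factor, and both raise the chaperones and the machinery that returns misfolded proteins to the cytosol for degradation. PERK phosphorylates the translation factor eIF2-alpha, a substrate that it shares with the kinases GCN2, PKR and HRI, and this favours translation of ATF4. ATF4 then raises genes of amino acid supply, redox balance and feedback. Gene counts show neither the splicing of Xbp1 nor the cleavage, phosphorylation or translation of these proteins.

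In the absence of heat shock, KO MEFs carried more messenger RNA of Atf4, of its 5 listed targets and of Ddit3, Atf6 and Herpud1. Amounts of the main lumenal chaperones were within 1.5-fold of WT. Some known ATF4 targets outside the list, such as Vldlr, Stc2 and Atf3, were lower in KO MEFs, as given below. In RNA from whole cultures, fewer cells of a type and less RNA per cell cannot be told apart. A gene was called at a limma adjusted p of at most 0.05 (Benjamini-Hochberg over all tested genes) and a fold of at least 1.5. In KO control against WT control MEFs, 10 of the 31 tested genes were called higher, where 22.9% of all tested genes were, and 2 were called lower, where 25.8% of all tested genes were. The remaining 19 were not called. The median log2 fold change was 0.18 over the list and -0.04 over all tested genes. By role, all 5 targets of the ATF4 arm rose, with Ddit3 and Atf4 among 3 transcription factors, Atf6 among 3 sensors, Herpud1 among 7 tested degradation genes and Sdf2l1 among 7 chaperones and lectins. The genes that fell were Pdia3, among 4 disulfide isomerases, and Syvn1, of the degradation group.

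After heat shock, 8 of the 31 were called higher in KO than in WT MEFs, where 23.2% of all tested genes were, and 3 were called lower, where 25.5% of all tested genes were. The median was 0.16, against -0.03 over all tested genes. Of the genes called in either comparison, 10 were called in both with the same direction, Atf4 and Sdf2l1 only in control MEFs and Creld2 only after heat shock. These 2 comparisons use separate libraries and share 1 estimate of the spread. Across the 31 genes their log2 fold changes had a Pearson r of 0.984, with 27 genes of the same sign. The points of this correlation are genes of the same libraries, so it is a description only. KO libraries all lay above WT libraries for 17 of the 31 genes in control MEFs and below them for 9. After heat shock these numbers were 17 and 8. Libraries of the genotypes lay apart in 76.4% of all tested genes in control MEFs and in 78.4% after heat shock. Such separation was therefore common.

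**Figure D1:**
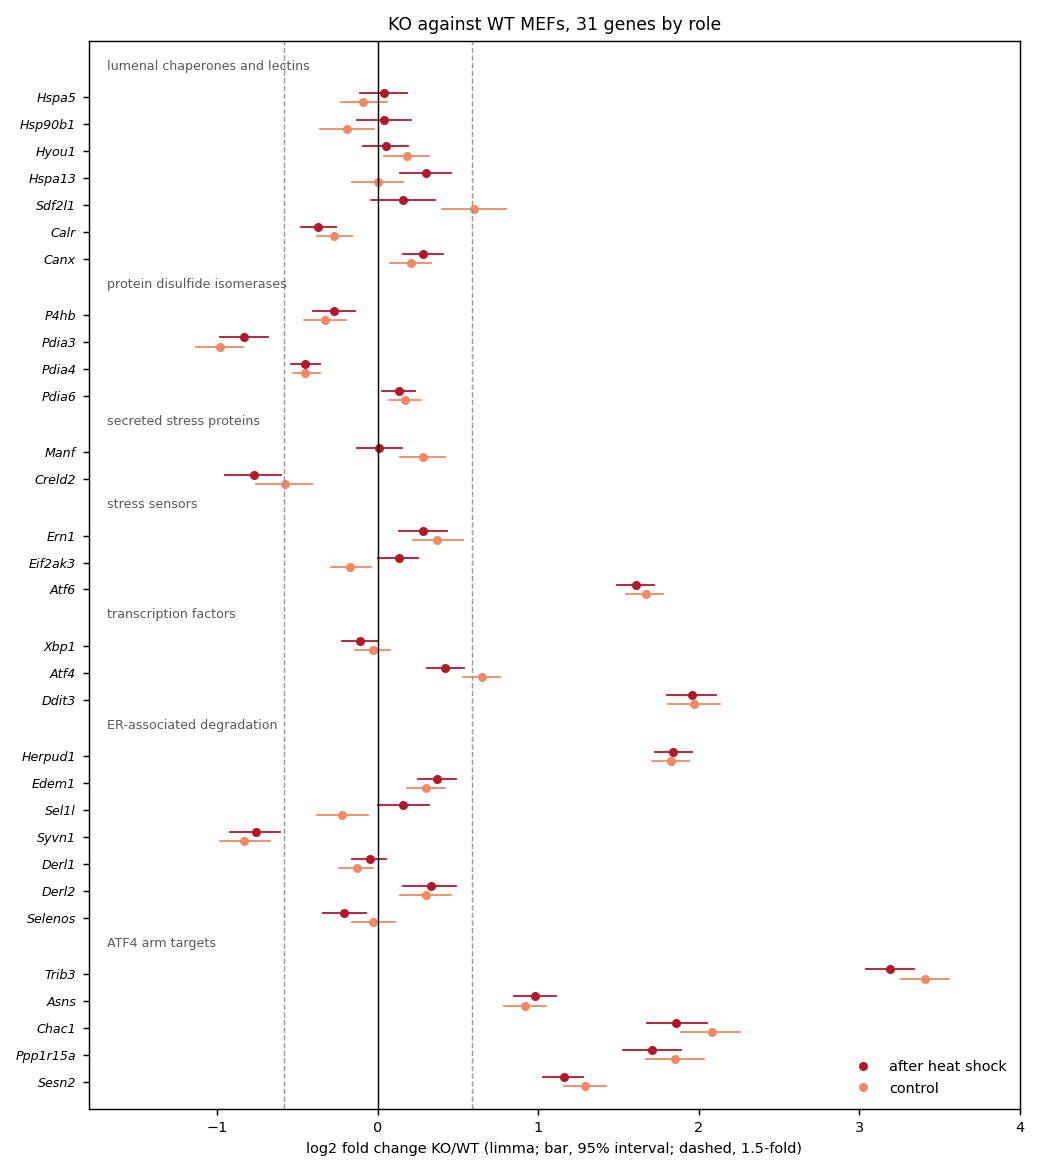
Log2 fold change of KO over WT MEFs (x axis) for the 31 tested genes grouped by role (y axis), after heat shock and in control MEFs. Points are limma estimates, bars their 95% intervals, and dashed lines mark a 1.5-fold difference. The 5 targets of the ATF4 arm, Ddit3, Atf6 and Herpud1 lie right of the upper line in both conditions, and Pdia3 and Syvn1 left of the lower one.

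Atf4 encodes the transcription factor that is translated when eIF2-alpha is phosphorylated (chr15:80255184-80257541). Its signal was 17536, 18427 and 18520 in KO heat shock, 18178, 17545 and 17625 in KO control, 12943, 13293 and 14417 in WT heat shock and 11715, 11434 and 10931 in WT control MEFs. All KO libraries were above all WT libraries. The log2 fold change of KO over WT was 0.65 in control MEFs (SE 0.05, adjusted p = 4.18e-08) and 0.42 after heat shock (SE 0.05, adjusted p = 4.36e-06), the second under the 1.5-fold limit. Per kb of exon, Atf4 was among the most abundant of the 32 genes. Its signal was 7541 per kb in KO control and 4818 per kb in WT control MEFs. The length used is that of all GENCODE M21 exons of a gene together, whichever transcript was expressed.

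Ddit3 encodes CHOP, a transcription factor downstream of ATF4 that is linked to cell death under lasting stress (chr10:127290774-127296288). It gave 2008, 2086 and 2044 in KO heat shock, 2197, 1821 and 2158 in KO control, 506, 531 and 544 in WT heat shock and 565, 502 and 504 in WT control MEFs. The genotypes did not overlap, and within each genotype the heat shock and control libraries did. KO MEFs were 3.92-fold higher in control (log2 1.97, SE 0.07, adjusted p = 4.85e-12) and 3.88-fold higher after heat shock (log2 1.96, SE 0.07, adjusted p = 5.34e-12). Exons of Ddit3 overlap those of Mars on the other strand, and no source says whether reads were counted by strand. Mars had a log2 fold change of -0.35 in control MEFs, the opposite direction.

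Trib3, a pseudokinase that binds ATF4 and restrains it, showed the largest difference of the list (chr2:152337422-152344032). Its libraries had a signal of 3611, 3664 and 3717 in KO heat shock, 3714, 3360 and 3787 in KO control, 391, 393 and 417 in WT heat shock and 381, 321 and 322 in WT control MEFs. KO MEFs were thus 10.6-fold higher in control (log2 3.41, SE 0.07, adjusted p = 9.33e-15) and 9.13-fold higher after heat shock (log2 3.19, SE 0.07, adjusted p = 1.75e-14).

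Chac1 degrades glutathione (chr2:119351229-119354381). The values were 1081, 1040 and 1109 in KO heat shock, 1310, 1143 and 1262 in KO control, 269, 284 and 338 in WT heat shock and 308, 293 and 276 in WT control MEFs. Every KO library stood above every WT library. The fold was 4.22 in control (log2 2.08, SE 0.09, adjusted p = 1.62e-11) and 3.64 after heat shock (log2 1.86, SE 0.09, adjusted p = 5.55e-11).

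Ppp1r15a encodes GADD34, the phosphatase subunit that reverses eIF2-alpha phosphorylation (chr7:45522916-45526268). It had a signal of 2369, 2146 and 2485 in KO heat shock, 2301, 1950 and 2372 in KO control, 668, 764 and 704 in WT heat shock and 653, 612 and 564 in WT control MEFs. KO libraries were again all higher, 3.61-fold in control (log2 1.85, SE 0.09, adjusted p = 4.79e-11) and 3.27-fold after heat shock (log2 1.71, SE 0.09, adjusted p = 1.16e-10). Its exons overlap Tulp2 on the other strand, which averaged only 19.5 in KO control and 0.241 in WT control MEFs.

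Sesn2, a sestrin that restrains mTORC1 when amino acids are short (chr4:132492032-132510501), had 1287, 1251 and 1247 in KO heat shock, 1363, 1219 and 1232 in KO control, 544, 570 and 583 in WT heat shock and 515, 531 and 509 in WT control MEFs. The difference of KO to WT was 2.45-fold in control (log2 1.29, SE 0.06, adjusted p = 4.87e-11) and 2.23-fold after heat shock (log2 1.16, SE 0.06, adjusted p = 1.66e-10). Asns, the asparagine synthetase (chr6:7675169-7693254), had 7513, 7643 and 7946 in KO heat shock, 7453, 7542 and 8063 in KO control, 3719, 3710 and 4293 in WT heat shock and 4057, 3949 and 4207 in WT control MEFs. Asns was the least changed of these 5 targets, without overlap between genotypes. It was 1.89-fold higher in KO control (log2 0.92, SE 0.06, adjusted p = 2.83e-09) and 1.97-fold higher in KO heat shock MEFs (log2 0.98, SE 0.06, adjusted p = 1.26e-09).

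Herpud1, a membrane protein of the degradation complex around the ligase HRD1 (chr8:94386438-94395377), had a signal of 2496, 2785 and 2649 in KO heat shock, 2581, 2633 and 2526 in KO control, 730, 710 and 767 in WT heat shock and 732, 731 and 713 in WT control MEFs. It was 3.55-fold higher in KO control (log2 1.83, SE 0.05, adjusted p = 3.45e-13) and 3.59-fold higher in KO heat shock MEFs (log2 1.84, SE 0.05, adjusted p = 3.12e-13), and it stood apart from the other degradation genes in size. Promoter windows from RefSeq (250 bases before to 50 after the start site, GRCm38.p6) were searched on both strands for known letters of this pathway. They were found for 27 of the 32 genes and not for Manf, Atf6, Hyou1, Hspa13 and Derl1. The composite element bound by ATF4, TGATGNAA, was present in Asns, Chac1, Herpud1 and Trib3, which is 14.8% of the 27, against 4.51% of 27025 genes with a window. The 4 stretches are shown because these genes rose together, with the match in capitals and each stretch read 5′ to 3′ on the strand of its gene. In Herpud1 the stretch goes on, 52 bases further, to a match of the second endoplasmic reticulum stress element (ERSE-II, which is ATTGG, any 1 base, then CCACG), also in capitals.
Herpud1 (chr8:94386307-94386399, forward strand): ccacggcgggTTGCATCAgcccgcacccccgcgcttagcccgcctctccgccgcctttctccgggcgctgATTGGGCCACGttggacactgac
Trib3 (chr2:152344029-152344056, reverse strand): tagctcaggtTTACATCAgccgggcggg
Chac1 (chr2:119351039-119351066, forward strand): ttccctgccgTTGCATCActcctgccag
Asns (chr6:7693215-7693242, reverse strand): cccagccacaTGATGAAActtcccgcac

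In Herpud1, Trib3 and Chac1 the element runs against the gene, so its reverse complement is what the capitals show, and in Asns it runs with the gene. The match begins 112 bases before the RefSeq start site in Herpud1, 193 before it in Chac1 and 23 before it in Asns. In Trib3 the match begins 14 bases after that site. RefSeq start sites can differ from the GENCODE M21 gene bounds given here. By those bounds the Asns match lies within the gene and the Trib3 match before it. The 4 genes had log2 fold changes of KO over WT of 0.92 to 3.41 in control (median 1.95) and 0.98 to 3.19 after heat shock (median 1.85). Ddit3, Ppp1r15a and Sesn2 had no match in this window. ERSE-II matched Herpud1 alone among the 27 and 0.0444% of all genes with a window. The genes and the letters were both chosen for this pathway, so these shares are a description. A match of letters is likewise a description and not a site of binding in these cells.

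**Figure D2:**
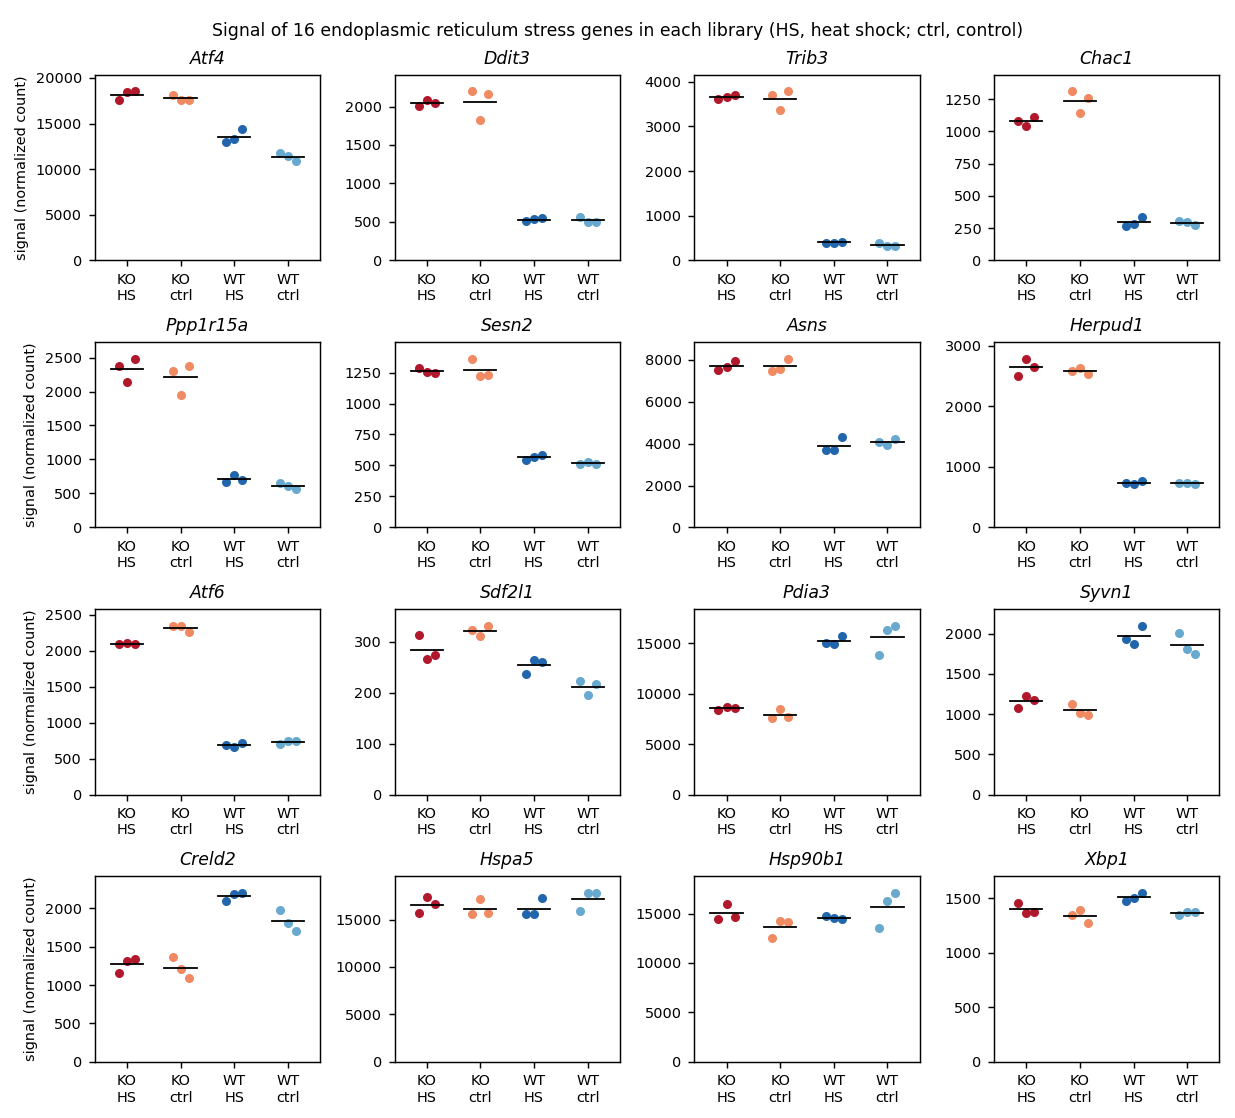
Signal (normalized count, y axis from 0) of 16 genes in each library, with 1 point per library and a line at the group mean, for KO heat shock, KO control, WT heat shock and WT control MEFs. The KO points of Trib3 lie at 3360 to 3787 and its WT points at 321 to 417, while Hspa5, Hsp90b1 and Xbp1 overlap between the control groups of both genotypes.

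Atf6, the sensor whose cleaved part is a transcription factor, was the only sensor called (chr1:170704674-170867771). Its signal was 2093, 2108 and 2099 in KO heat shock, 2349, 2341 and 2259 in KO control, 687, 657 and 723 in WT heat shock and 699, 748 and 742 in WT control MEFs. KO MEFs were 3.17-fold higher in control (log2 1.67, SE 0.05, adjusted p = 7.34e-13) and 3.05-fold higher after heat shock (log2 1.61, SE 0.05, adjusted p = 1.08e-12). Per kb of exon the order of the sensors in KO control MEFs was Atf6 at a signal of 251, Eif2ak3 at 143 and Ern1 at 112. In WT control MEFs the order was Eif2ak3 at 160, Ern1 at 86.7 and Atf6 at 79. The length takes in all annotated exons, so the order of close values, as of Ern1 and Atf6 in WT control MEFs, is not settled. Ern1, which encodes IRE1, averaged 919 ± 68.5 in KO control and 709 ± 38.4 in WT control MEFs (SD, n = 3 each), a log2 difference of 0.37 that passed the adjusted p (2.62e-04) but not the 1.5-fold limit. Eif2ak3, which encodes PERK, averaged 860 ± 4.55 in KO control and 965 ± 2.99 in WT control MEFs (SD, n = 3 each), a log2 difference of -0.17 (adjusted p = 0.0188), also under that limit.

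Xbp1, the messenger spliced by IRE1, did not differ detectably in total amount. Its signal was 1337 ± 57.1 in KO control and 1366 ± 18.2 in WT control MEFs (SD, n = 3 each), with a log2 difference of -0.03 and a 95% interval of -0.14 to 0.08. After heat shock the log2 difference of KO to WT was -0.11, with an interval of -0.22 to 0.00 (adjusted p = 0.0602).

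The main lumenal chaperones of KO MEFs were within 1.5-fold of WT amounts. Hspa5, which encodes BiP, the HSP70 of the lumen, had 15689, 17433 and 16608 in KO heat shock, 15585, 17147 and 15742 in KO control, 15636, 15579 and 17291 in WT heat shock and 15861, 17765 and 17825 in WT control MEFs. The groups overlapped throughout. Its log2 difference of KO to WT was -0.09 in control (95% interval -0.23 to 0.06) and 0.04 after heat shock (-0.11 to 0.18), so that a 1.5-fold change lay outside both intervals. Hsp90b1, which encodes GRP94, the HSP90 of the lumen, differed by -0.19 in control (adjusted p = 0.0411) and 0.04 after heat shock (adjusted p = 0.638). The exchange factor Hyou1 differed by 0.18 and 0.05, and the HSP70 relative Hspa13 by 0.00 and 0.30, in control and after heat shock in that order. Calr, which encodes calreticulin, differed by -0.27 and -0.37 and Canx, which encodes calnexin, by 0.21 and 0.28, with an adjusted p under 0.05 in both comparisons and a fold under 1.5. The 2 lectins therefore differed from WT in opposite directions.

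Sdf2l1, a lumenal partner of the BiP cycle (chr16:17130138-17132383), was the chaperone cofactor that was called. It had a signal of 313, 265 and 273 in KO heat shock, 322, 311 and 331 in KO control, 236, 264 and 260 in WT heat shock and 223, 196 and 216 in WT control MEFs. All KO libraries lay above all WT libraries, by a small margin after heat shock. The difference was 1.52-fold in control (log2 0.60, SE 0.09, adjusted p = 3.45e-05) and 0.16 on the log2 scale after heat shock (SE 0.09, adjusted p = 0.136). The control value sits just above the 1.5-fold limit and fell below it without KO control 3 (log2 0.58) or without WT control 2 (log2 0.55).

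The endoplasmic reticulum stress element ERSE, which is CCAAT, then any 9 bases, then CCACG, shares its CCACG end with ERSE-II. It was present in Calr, Canx, Creld2, Derl3, Hsp90b1, Hspa5, Pdia6 and Syvn1, or 29.6% of the 27 genes with a window, against 0.137% of all genes with one. None of the 7 tested genes that hold it was called higher in KO MEFs. Of all tested genes, 22.9% were called higher in control and 23.2% after heat shock, so none among 7 is a description only. The stretches of 4 of the genes that hold it are shown, with the match in capitals.
Hspa5 (chr2:34772013-34772055, forward strand): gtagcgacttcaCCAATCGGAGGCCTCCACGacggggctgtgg
Canx (chr11:50325788-50325830, reverse strand): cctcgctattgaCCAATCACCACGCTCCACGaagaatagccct
Syvn1 (chr19:6046520-6046562, forward strand): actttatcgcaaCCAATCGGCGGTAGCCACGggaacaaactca
Calr (chr8:84847063-84847105, reverse strand): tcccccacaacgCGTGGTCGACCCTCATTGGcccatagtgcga

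In Calr the element runs against the gene and is seen as its reverse complement. The match begins 65 bases before the RefSeq start site in Hspa5, 145 in Canx, 44 in Syvn1 and 162 in Calr. The 7 tested genes with ERSE had log2 fold changes of KO over WT of -0.83 to 0.21 in control (median -0.19) and -0.77 to 0.28 after heat shock (median 0.04). The XBP1 element TGACGTGG matched 0 of the 27 windows and 0.714% of all. The shares for ERSE and for this element have the same limit, since genes and letters were chosen for the same pathway.

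**Figure D3:**
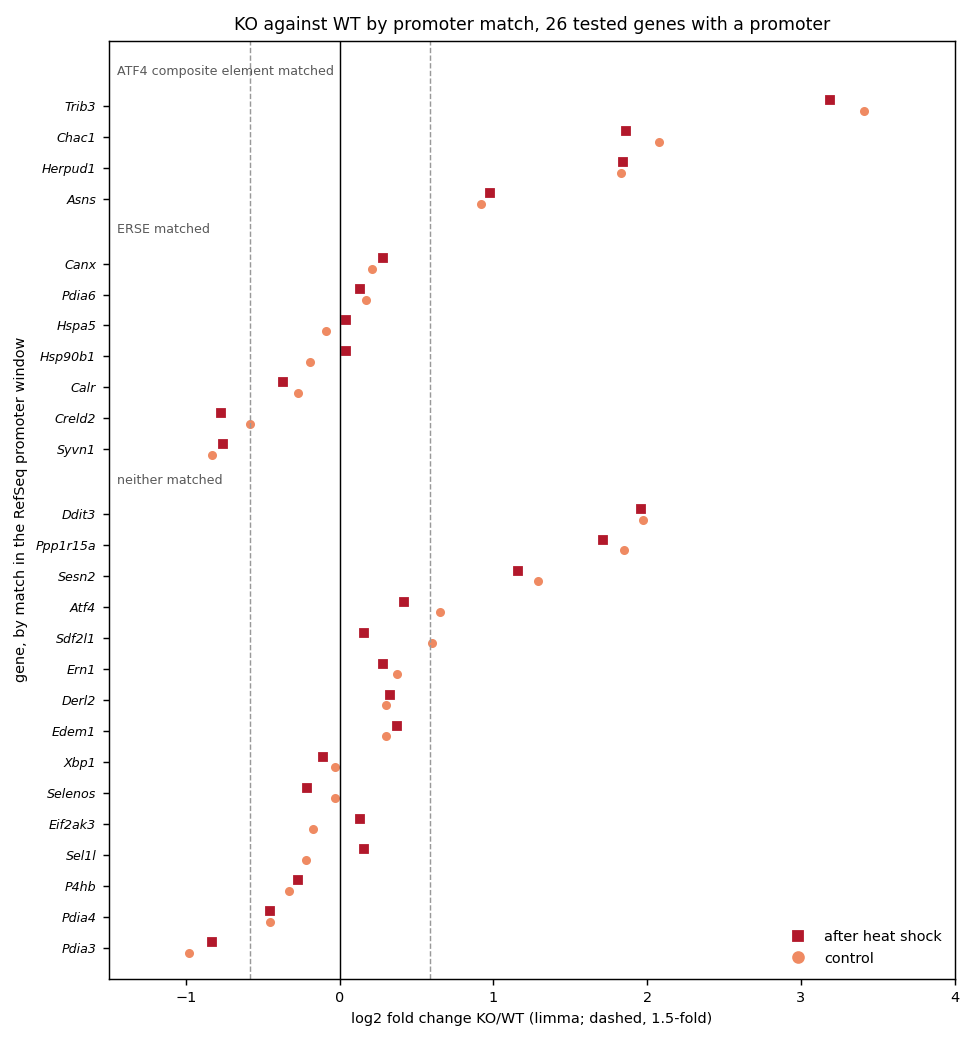
Log2 fold change of KO over WT MEFs (x axis) for the 26 tested genes with a promoter window, by the letters found there (y axis), after heat shock and in control MEFs. Dashed lines mark a 1.5-fold difference. The 4 genes with the ATF4 composite element lie at 0.92 to 3.41, and the 7 genes with ERSE at -0.83 to 0.28.

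Of the 4 disulfide isomerases, 1 was called, lower in KO MEFs in both comparisons. Pdia3 encodes ERp57, which works on glycoproteins with calnexin and calreticulin (chr2:121413775-121438687). It had a signal of 8394, 8671 and 8626 in KO heat shock, 7575, 8448 and 7665 in KO control, 14993, 14908 and 15701 in WT heat shock and 13830, 16359 and 16758 in WT control MEFs. The KO libraries were all below the WT ones. Pdia3 was 1.98-fold lower in KO control (log2 -0.98, SE 0.07, adjusted p = 6.05e-09) and 1.77-fold lower in KO heat shock MEFs (log2 -0.83, SE 0.07, adjusted p = 4.22e-08). Pdia4 (ERp72) differed by -0.45 in both conditions, and P4hb, the classical disulfide isomerase and a subunit of collagen prolyl hydroxylase, by -0.33 in control and -0.27 after heat shock, each past the adjusted p and under the fold limit. Pdia6 was on the other side, with 0.17 in control (adjusted p = 0.00521) and 0.13 after heat shock (adjusted p = 0.0245), also under the fold limit and with KO libraries all above WT libraries in each condition. Per kb of exon P4hb and Calr were the most abundant genes of the list in WT control MEFs, at 7846 and 7089.

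Creld2 and Manf are made in the endoplasmic reticulum, rise under stress and can be secreted. Creld2 (chr15:88819646-88826683) had a signal of 1153, 1310 and 1344 in KO heat shock, 1361, 1213 and 1098 in KO control, 2097, 2188 and 2202 in WT heat shock and 1985, 1809 and 1705 in WT control MEFs. It was lower in all KO libraries, 1.71-fold after heat shock (log2 -0.77, SE 0.08, adjusted p = 6.44e-07). In control MEFs the log2 difference was -0.58 (SE 0.08, adjusted p = 1.24e-05), at the edge of the 1.5-fold limit, and it passed that limit without KO control 1 (-0.66), WT control 2 (-0.59) or WT control 3 (-0.64). Manf differed by 0.28 in control (adjusted p = 0.00153) and by 0.01 after heat shock (adjusted p = 0.883). Exons of Manf overlap those of Rbm15b on the same strand, which averaged 1666 in KO control and 1840 in WT control MEFs.

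Within the degradation machinery the directions differed between partners of 1 complex. Syvn1, which encodes the ligase HRD1 (chr19:6046576-6053712), had a signal of 1073, 1228 and 1171 in KO heat shock, 1129, 1016 and 990 in KO control, 1935, 1866 and 2097 in WT heat shock and 2004, 1812 and 1747 in WT control MEFs. No KO library reached a WT library. Syvn1 was 1.77-fold lower in KO control (log2 -0.83, SE 0.07, adjusted p = 9.45e-08) and 1.7-fold lower in KO heat shock MEFs (log2 -0.76, SE 0.07, adjusted p = 2.24e-07). Its exons overlap Mrpl49 on the other strand, which had a log2 difference of -0.54 in control MEFs, the same direction, and without the strand setting reads of this pair cannot be told apart.

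The other degradation genes were not called. Sel1l, the adaptor of HRD1, differed by -0.22 in control and 0.16 after heat shock, and Edem1, which marks glycoproteins for removal, by 0.30 and 0.37 in that order. The derlins Derl1 and Derl2, channel partners of the complex, differed by -0.13 and 0.30 in control MEFs. Exons of Derl2 overlap those of Mis12 on the other strand, which had a log2 difference of -0.55 in control MEFs. Selenos, which recruits the ATPase p97, differed by -0.03 in control and -0.21 after heat shock.

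No gene of the list was called after 20 min of heat shock. In KO heat shock against KO control MEFs, 0 of the 31 genes were called, where 0.887% of all tested genes were. In WT heat shock against WT control MEFs, 0 were called, where 3.68% of all tested genes were. edgeR and DESeq2 on the whole reads recovered from the values also called 0 in either genotype. At an unadjusted p under 0.05, limma had 5 of the 31 genes in KO MEFs, where 16.7% of all tested genes were, and 15 in WT MEFs, where 40.8% were, and edgeR and DESeq2 had the same numbers of list genes. Log2 fold changes ran from -0.20 to 0.31 in KO MEFs and from -0.38 to 0.29 in WT MEFs.

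At the adjusted p alone, with no limit on the fold, 1 gene was higher in KO heat shock than in KO control MEFs, P4hb (log2 0.31), where 1.8% of all tested genes were higher, and 0 were lower. It had a signal of 20694, 23255 and 22452 after heat shock, against 18710, 17806 and 17129 in control (adjusted p = 0.0137), without overlap. By the same measure 8 genes were higher in WT heat shock than in WT control MEFs, where 14.2% of all tested genes were, and 4 were lower, where 14.6% of all tested genes were. The higher ones were Calr (log2 0.29), Hyou1 (0.26), Atf4 (0.25), P4hb (0.24), Creld2 (0.24), Trib3 (0.23), Manf (0.18) and Xbp1 (0.15). The lower ones were Sel1l (-0.38), Hspa13 (-0.35), Eif2ak3 (-0.30) and Edem1 (-0.22). Calr had the lowest adjusted p in WT MEFs. It had a signal of 24139, 24889 and 25974 after heat shock, against 20794, 20818 and 19636 in control (adjusted p = 0.00196), without overlap. Heat shock and control libraries lay apart in 42.4% of all tested genes in WT MEFs and in 21.6% in KO MEFs. Of the 8 higher genes, the test of the difference between the genotypes called 0, as it did 0% of all tested genes. A call there needs a 1.5-fold difference, beyond the size of these 8 rises, so it says little about them. At the adjusted p alone, the difference of Atf4 passed in DESeq2, and none of the 8 passed in limma or edgeR.

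**Figure D4:**
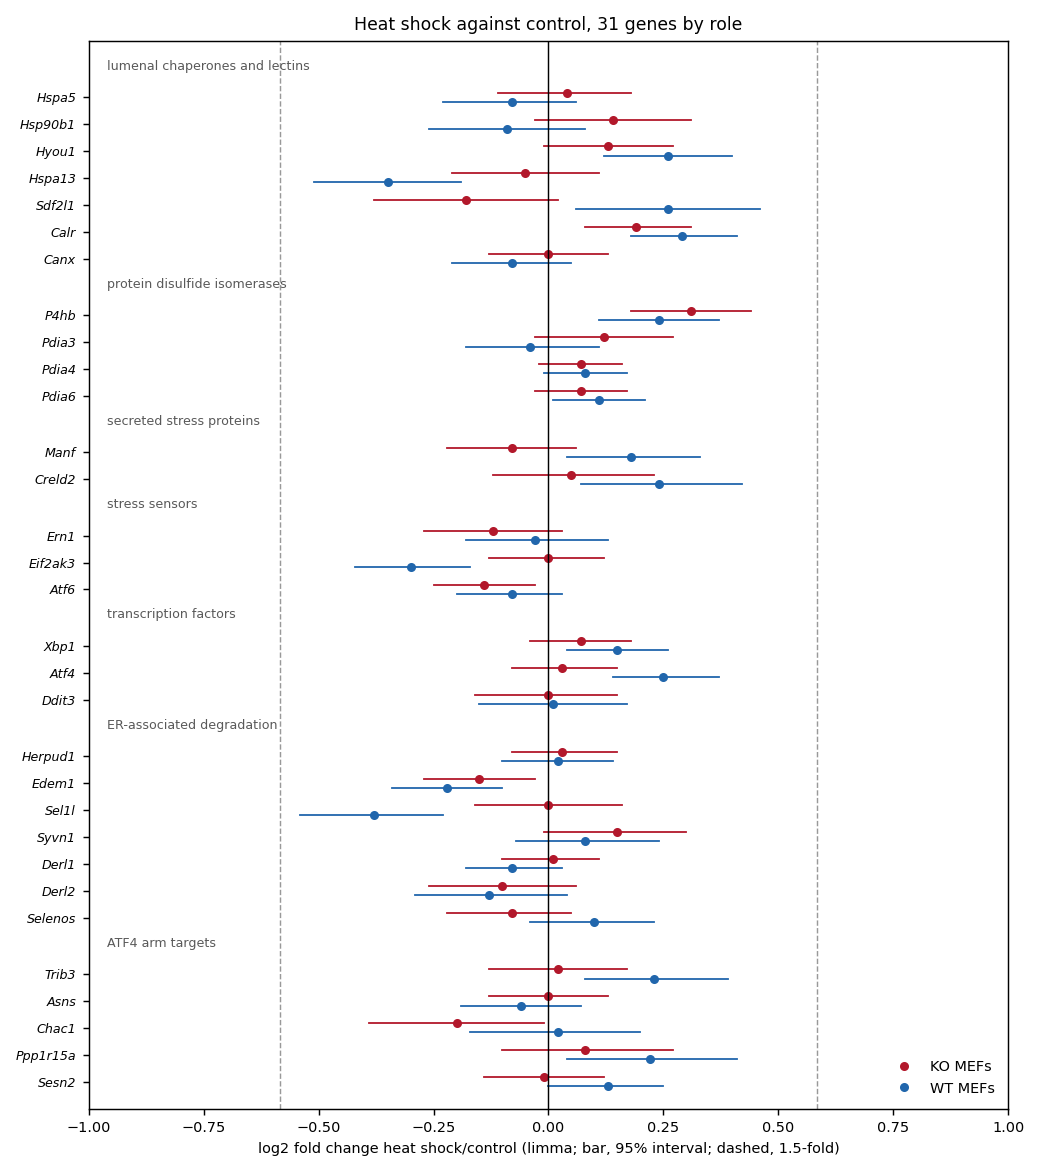
Log2 fold change of heat shock over control (x axis) for the 31 tested genes grouped by role (y axis), in KO and in WT MEFs. Points are limma estimates, bars their 95% intervals, and dashed lines mark a 1.5-fold difference. Every point lies between the dashed lines, from -0.38 to 0.31.

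The heat shock response of KO MEFs minus the response of WT MEFs tests whether the genotypes responded differently. By this test 0 of the 31 genes were called, and 0% of all tested genes were. At an unadjusted p under 0.05 there were 7 of the 31 in limma, where 17.8% of all tested genes were, and 8 in edgeR and in DESeq2, and each tool called 0 of the 31. The lowest adjusted p was that of Sel1l, 0.133 in limma, 0.0923 in edgeR and 0.0306 in DESeq2. Sel1l averaged 1109 ± 38.4 in KO heat shock and 1112 ± 88.4 in KO control MEFs, against 992 ± 77.7 in WT heat shock and 1294 ± 75.9 in WT control MEFs (SD, n = 3 each). The difference of responses was 0.38 on the log2 scale (95% interval 0.16 to 0.60). In DESeq2 Atf4 also passed the adjusted p without the fold. The largest in size was Sdf2l1, with -0.44 (95% interval -0.73 to -0.16), which did not pass the adjustment (adjusted p = 0.154).

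Wider lists of the same pathway, counted in the same fits, gave mixed directions between KO control and WT control MEFs, where 22.9% of all tested genes were called higher and 25.8% lower. Of 52 tested genes of stress signalling and ATF4 targets, 21 were called higher (40.4%) and 12 lower (23.1%). Their leading rises were Atf5, a transcription factor translated like ATF4, with 5020 ± 382 in KO control and 583 ± 42.9 in WT control MEFs (log2 3.10), Cebpb, a partner of ATF4 and CHOP, with 3866 ± 573 and 488 ± 90.7 in the same order (log2 2.99), and Cth, an enzyme of cysteine synthesis, with 1414 ± 136 and 260 ± 20.7 (log2 2.44; SD, n = 3 each). Of the 11 aminoacyl-tRNA synthetases in that list, 6 were called higher and 0 lower, and Sars had a log2 difference of 1.52. Of 5 enzymes of serine and one-carbon metabolism, 4 were called higher, among them Phgdh (1.23) and Psat1 (0.89). The cystine transporter Slc7a11 was also higher (log2 1.86). Of 4 enzymes of proline synthesis and transsulfuration, 2 were called higher, Cth among them, and 1 lower. The lower one was Cbs (log2 -3.99), with 0 in KO control and 15.5 ± 4.96 in WT control MEFs (SD, n = 3 each).

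Not all known ATF4 targets moved this way. Vldlr had 0 reads in KO MEFs and a signal of 949 ± 67.3 in WT control MEFs, so that it was at least 942-fold lower in KO control, where 3 reads in the group are taken as the floor, and at least 764-fold lower after heat shock. Stc2 had 0 reads in KO control and 188 ± 16.7 in WT control MEFs, at least 186-fold lower by the same floor. Atf3 was called lower too, with 21.3 ± 2.11 in KO control and 51.7 ± 2.84 in WT control MEFs (log2 -1.24, adjusted p = 0.00329). After heat shock its log2 difference of KO to WT was -3.09 (adjusted p = 6.78e-07). Wfs1 (log2 -2.48), Ddit4 (-0.60) and, from low values, Gdf15 (-3.09) were also called lower in KO control MEFs. Creb3l1, a membrane transcription factor related to ATF6 that acts on collagen genes, averaged 32.5 ± 2.21 in KO control and 3567 ± 253 in WT control MEFs (log2 -6.74; SD, n = 3 each). Among the eIF2-alpha kinases other than PERK, Eif2ak1 (HRI) fell by 0.98 on the log2 scale in KO control MEFs, Eif2ak2 (PKR) had -0.64 and Eif2ak4 (GCN2) had 0.37, the last under the fold limit. The call of Eif2ak2 was lost without KO control 1 (-0.57) or WT control 3 (-0.56) and after quantile normalization (-0.57).

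Of 35 further genes of folding and redox, 4 were called higher (11.4%) and 10 lower (28.6%) in KO control against WT control MEFs, beside the same 22.9% and 25.8% of all tested genes. Ero1l, the oxidase that recharges protein disulfide isomerase, averaged 9267 ± 911 in KO control and 324 ± 46.7 in WT control MEFs (log2 4.84), the largest rise of these lists. The BiP cochaperones Dnajb9 and Dnajc3 differed in opposite directions (log2 0.96 and -0.78). The prolyl isomerases Fkbp14 (-1.56), Fkbp11 (-1.27) and Fkbp7 (-1.16) fell, and so did Serpinh1 (-0.95), the collagen chaperone, which averaged 24431 ± 2110 in KO control and 47207 ± 1978 in WT control MEFs (SD, n = 3 each). Of 28 genes of translocation and N-glycosylation, 2 were higher (7.14%), Tusc3 (log2 0.89) and Ssr4 (0.73), and 6 lower (21.4%), led by Tram1 (-1.81), Srp72 (-1.32) and Sec63 (-0.95). Of 28 further degradation genes, 5 were higher (17.9%), among them Tmub1 (log2 1.07) and Rnf5 (0.79), and 3 were lower (10.7%), Ubxn8 (-1.04), the ATPase Vcp (-0.89) and Ube2g2 (-0.63). Ube2g2 lost its call without WT control 1 (-0.57) and after quantile normalization (-0.56).

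After heat shock, where 23.2% of all tested genes were called higher in KO than in WT MEFs and 25.5% lower, the 52 genes of stress signalling had 19 higher (36.5%) and 10 lower (19.2%). The 35 genes of folding and redox had 5 higher (14.3%) and 12 lower (34.3%). The 28 genes of translocation had 2 higher (7.14%) and 7 lower (25%), and the 28 degradation genes 5 higher (17.9%) and 4 lower (14.3%). Heat shock against control called 0 of these 143 genes in KO MEFs, where 0.887% of all tested genes were, and 4 in WT MEFs (2.8%), where 3.68% were. Atf3, a stress transcription factor, had 40.7, 39.4 and 26.2 in KO heat shock, against 19.1, 23.3 and 21.5 in KO control MEFs, a log2 difference of 0.69 that was not called (adjusted p = 0.316). It rose in WT MEFs (log2 2.54, adjusted p = 3.31e-04), with 420, 459 and 146 after heat shock, against 55, 49.8 and 50.3 in control. The difference of the Atf3 responses was -1.85 (adjusted p = 0.12) and was called only without WT heat shock 3 (-2.38, adjusted p = 0.00434). Rnf139 (-0.77), Mbtps2 (-0.69) and Eif2ak2 (-0.60) fell in WT MEFs, and each lost its call without WT control 3 (-0.55, -0.53 and -0.52). WT control 3 had the largest share of mitochondrial reads, 1.19%, beside 1.13% in KO control 3. The part of this share in the calls was not tested. Eif2ak2 lost its call also without WT control 2 (-0.57), WT heat shock 2 (-0.58) or WT heat shock 3 (-0.50) and after quantile normalization (-0.57). Rnf139 lost it also in a limma fit of the WT groups alone (-0.77, adjusted p = 0.0525). The differences of the responses of Eif2ak2 (0.63), Ero1l (0.59), Rnf139 (0.58) and Mbtps2 (0.56) were not called in limma. In DESeq2 Eif2ak2 (0.62, adjusted p = 0.00787) and Ero1l (0.60, adjusted p = 0.00411) were, and without WT control 1 so were all 4 in limma (0.73, 0.71, 0.80 and 0.71 in that order, adjusted p = 0.0318 to 0.0493). Eif2ak2 was called also without WT heat shock 1 (0.75, adjusted p = 0.0334).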

How the data were processed

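Poly-A RNA of 12 MEF libraries was sequenced as stranded paired reads, which the authors trimmed with cutadapt 1.10, aligned with STAR 2.5.2 and counted per gene with HTSeq-count. The paper names GRCm38 and the submitters' notes name mm9. The deposited signal is the count that the authors divided by a DESeq2 size factor per library, and 100% of the values were whole reads within 0.01 read.

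The log2 of signal plus 1 was fitted in limma 3.58.1 (R 4.3.3; eBayes with trend) over all 12 libraries, with 1 mean per group and 5 contrasts, and fold changes are on that scale. edgeR 4.0.16 and DESeq2 1.42.0 were run on the recovered reads. The fits were tested on simulated data. Loci came from GENCODE M21 and promoters from RefSeq.

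The members and lists were chosen with earlier results of these data known. Values per library are given for members called in any contrast or with the lowest adjusted p of a heat shock contrast. From each further list the text names up to 3 called genes per direction of the control comparison, where the higher mean reached 100, and any gene called in a heat shock contrast. One gene that this rule names is not reported here. Hspa5, Sel1l, Dnajc3, Serpinh1, Sars, Phgdh, Psat1, Slc7a11, Cbs, Wfs1, Gdf15, Ddit4, Eif2ak1 and Eif2ak4 were added after their values were seen. The enzyme subgroups of the stress signalling list were not among the lists fixed beforehand. The alternatives were a pseudocount of 5, no filter or a filter of 50, quantile normalization, edgeR, DESeq2, a replicate block, the compared groups alone and leaving out each library.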

Additional observations from a re-analysis of the deposited data

How the results depend on the processing

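The number of genes of the list called in each comparison changed little under every alternative that was run. Leaving out 1 library at a time gave 11 to 13 called genes in KO control against WT control MEFs, 11 in KO heat shock against WT heat shock MEFs and 0 in both heat shock comparisons and in the difference of responses. Of the 12 and 11 genes called in the 2 genotype comparisons, 11 and 11 were called under every alternative, and no call reversed. Sdf2l1 was the exception and Creld2 was the gene gained, with the values given above.

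Pairing by replicate number was not assumed, since only 2 of 18 correlations between the deviations of same-numbered libraries were above 0.1 (-0.071 to 0.205) and 6 of 12 libraries were closest to their own number. With the replicate number as a block the called genes were 12, 11, 0, 0 and 0 in the 5 contrasts. Without the number 3 libraries of both control groups, an alternative chosen after seeing their shares of mitochondrial reads, WT heat shock against WT control still called 0 genes of the list.

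Over all tested genes, the KO heat shock calls were 126, but 44 in a fit of the compared groups alone. The WT heat shock calls were 523, but 327 with a filter of 50, 312 without WT control 3 and 306 without the number 3 control libraries. The difference of responses had 0, but 12 with a pseudocount of 5, 3 with a filter of 50, 4 after quantile normalization, 10 in edgeR, 35 in DESeq2, 126 without WT control 1, 68 without WT heat shock 1, 13 without KO control 3, 8 without WT heat shock 3, 1 without KO control 1 and 1 without the number 3 control libraries. The causes were not tested. A fit of the compared groups alone was not possible for the difference, which uses all 4.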
